A study of Mus musculus with 2 samples.

Results

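Mir126a, Mir143 and Mir145a are microRNA genes tied to blood vessels: Mir126a to the endothelial lining, and the Mir143-Mir145a pair to the smooth muscle cells and pericytes around it. They were followed here in the forebrain of B6NCrl mouse embryos, unmanipulated and healthy, at embryonic day 13.5, with both sexes pooled. The 3 genes were chosen by their names in the mouse annotation, and all 3 were found among the 1973 microRNA genes listed. There were 2 libraries of RNA under 30 nucleotides, replicates 1 and 2 of 1 group, so the data hold no comparison between conditions. Both come from the same strain-level donor entry and have their own biosample entries. The labels call the libraries biological replicates 1 and 2, each with technical replicate number 1. The labels do not say how many embryos made up each pool. A difference between the libraries may be biological or technical, and these cannot be told apart here.

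MicroRNAs are cut from hairpin precursors and repress messenger RNAs that pair with their seed, the bases near the 5′ end of the mature strand. MiR-126 is made in endothelial cells together with its host gene Egfl7, which encodes a secreted endothelial factor. It is known for supporting signalling by vascular endothelial growth factor through repression of Spred1 and Pik3r2. MiR-143 and miR-145 are cut from a shared transcript in the locus of the long noncoding RNA Carmn, and they are known for holding vascular smooth muscle cells in their contractile state. During forebrain development vessels grow inward from the surface, and mural cells are recruited onto them.

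Mir126a (ENSMUSG00000065540.1) lies on the plus strand at chr2:26591357-26591429 (GRCm38, also called mm10). The site is in an intron of Egfl7 in each of its protein-coding transcripts that spans the site, intron 7 of 10 exons in Egfl7-201. It is exonic in Egfl7-206, a transcript with a retained intron, and it also lies in an intron of the overlapping gene Gm20532. The hairpin is shown to mark where its reads can come from, with the mature 3p strand in capitals. It is followed by mature strands with the seed, bases 2 to 8, in capitals. All are RefSeq sequences on GRCm38.p6. Mir126b is annotated on the other strand of the same hairpin at chr2:26591363-26591420, and miR-130a, miR-322 and miR-21a come from the vessel-related genes with many reads described further on.
Mir126a hairpin: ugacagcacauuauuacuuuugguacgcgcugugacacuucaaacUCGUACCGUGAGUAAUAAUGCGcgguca
miR-126a-3p: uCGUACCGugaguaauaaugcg
miR-126b-5p: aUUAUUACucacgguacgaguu
miR-126b-3p: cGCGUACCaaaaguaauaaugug
miR-130a-3p: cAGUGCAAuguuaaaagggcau
miR-322-5p: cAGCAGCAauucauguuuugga
miR-21a-5p: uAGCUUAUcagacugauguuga

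The seed of miR-126a-3p occurred in 0 other genes among the 1738 mature sequences searched. By contrast, the miR-130a-3p seed occurred in 6 other genes, of which Mir130b and Mir301 reached 10 counts or more in both libraries. The miR-322-5p seed occurred in 10 other genes, among them Mir15a and Mir195a. The sequences searched do not cover every annotated microRNA, so these are minimum numbers. The 58 nucleotides of the Mir126b hairpin are the reverse complement of bases 7 to 64 of the Mir126a hairpin, so strand alone separates the reads of these genes. Mir126b had no line of its own in the tables, and the strand opposite Mir126a held 4 reads in replicate 1 and 3 in replicate 2.

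Mir143 (ENSMUSG00000065445.2) and Mir145a (ENSMUSG00000065592.1) lie on the minus strand at chr18:61649196-61649258 and chr18:61647825-61647894. Mir143 is the upstream member, and 1301 bases separate the hairpins. GENCODE M21 places both outside any host transcript, 367 bases beyond the end of Carmn for Mir143. The RefSeq span of Carmn, chr18:61645878-61665538, contains both. The opposite strand of these genes held 0 reads in either library.

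Replicate 1 held 4117752 reads counted on the strand of a microRNA gene, and replicate 2 held 3908953. Levels are given as CPM, counts relative to 1000000 of these gene counts, and 377 genes reached 10 counts or more in both libraries and are called detected. Errors are SD over n = 2 libraries. Reads that map to several places (40.6% of replicate 1 and 43.9% of replicate 2) have a row of their own in the tables and were taken to count on no gene. Among annotated microRNAs outside the locus, the longest stretch shared was 12 nucleotides for Mir126a, 11 for Mir143 and 17 for Mir145a, the last with Mir145b. The counts join both strands of a hairpin, so 5p and 3p forms were not separated. Among 10 measured neural genes, Mir92b and Mir137 of neural progenitors stood highest, at 13430 ± 660 and 7852 ± 1559 CPM. Others were low, with Mir124a-2 at 4.86 and Mir9-2 at 4.73 CPM, and Mir124a-1 and Mir124a-3 were not detected. Each of these low genes shares at least 20 nucleotides with another annotated microRNA, so their levels may be too low.

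By reads counted on genes, Mir126a was among the most abundant microRNA genes. Of the 377 detected genes, 82 share at least 20 nucleotides with another annotated microRNA. Reads that map to several places were taken to count on no gene, so such genes may stand too low in this order. Mir126a had 66058 counts in replicate 1 and 73599 in replicate 2, which is 16042 and 18828 CPM, or 17435 ± 1970 CPM. It was in place 15 of all genes in replicate 1 and place 13 in replicate 2. Its share of gene counts was 1.60% in replicate 1, with a 95% Wilson interval of 1.59 to 1.62, and 1.88% (1.87 to 1.90) in replicate 2. These intervals cover counting error only and do not overlap. By mean level it stood above 96.3% of the detected genes.

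Mir143 had 12687 counts in replicate 1 and 15517 in replicate 2, or 3081 and 3970 CPM. Its mean was 3525 ± 628 CPM, in place 52 among all genes, with place 62 in replicate 1 and 48 in replicate 2. Its share was 0.308% (0.303 to 0.314) in replicate 1 and 0.397% (0.391 to 0.403) in replicate 2. Mir143 therefore had the wider relative spread, a coefficient of variation of 17.8% against 11.3% for Mir126a.

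Mir145a had far fewer reads, 201 counts in replicate 1 and 194 in replicate 2, or 48.8 and 49.6 CPM. Its mean of 49.2 ± 0.577 CPM put it in place 243, below the median detected gene at 137 CPM. Its share was 0.00488% (0.00425 to 0.00560) in replicate 1 and 0.00496% (0.00431 to 0.00571) in replicate 2. These intervals overlap almost wholly. At 1 count per 0.243 CPM in replicate 1 and 0.256 CPM in replicate 2, the gene was well above the limit that a count of 0 allows, 0.729 and 0.767 CPM.

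**Figure D1:**
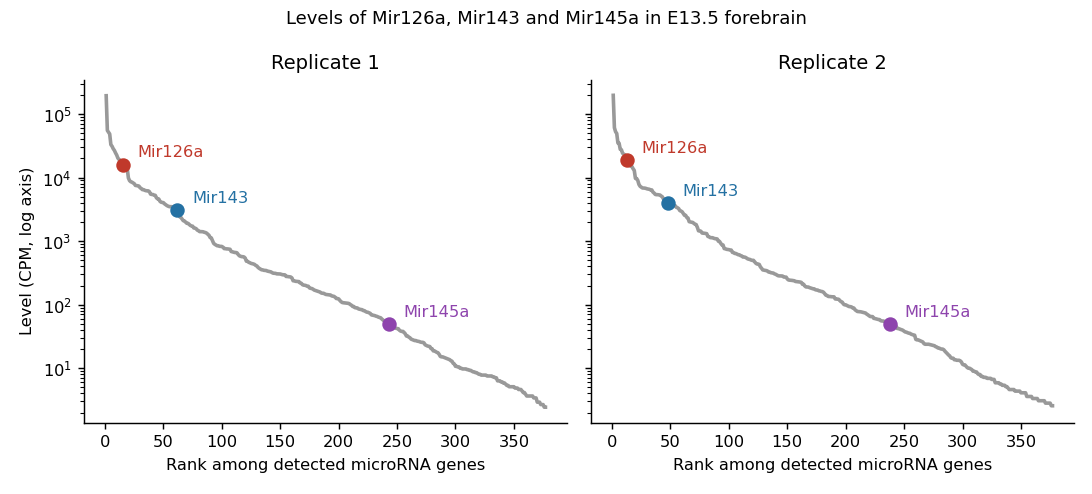
Level in CPM (log axis) against rank among detected microRNA genes (grey line) in replicate 1 (left) and replicate 2 (right), with the 3 vascular genes as points. Mir126a stands near the top at 16042 and 18828 CPM, Mir143 at 3081 and 3970 CPM, and Mir145a in the lower part of the range at 48.8 and 49.6 CPM.

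Both libraries ordered the genes as Mir126a, Mir143, Mir145a, and the gaps between these genes were far larger than the replicate SD. In counts, Mir126a exceeded Mir143 5.21-fold in replicate 1 (exact 95% interval 5.11 to 5.31) and 4.74-fold in replicate 2 (4.66 to 4.83). It exceeded Mir145a 329-fold in replicate 1 and 379-fold in replicate 2. These are ratios of reads, and since capture can differ between microRNAs they need not be ratios of molecules. In bulk tissue, fewer cells of a type and less RNA per cell cannot be told apart.

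Together the 3 genes held 78946 counts in replicate 1, or 1.92% of gene counts, and 89310 in replicate 2, or 2.28%. The mean share was 2.10% ± 0.260. Mir126a made up 83.7% of this sum in replicate 1 and 82.4% in replicate 2. Mir143 made up 16.1% and 17.4%, and Mir145a 0.255% and 0.217%. The summed share is thus in large part the share of Mir126a.

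Genes of similar level were found by the distance of log2(CPM + 1) over the 2 libraries. Nearest to Mir126a was Mir26b, at 16469 and 18448 CPM, or 17459 ± 1400 CPM, which differed from Mir126a by less than the SD of either gene. Mir181c, Mir322, Mir30e and Mir20a came next. The range of Mir126a overlapped those of 3 detected genes, Mir20a, Mir26b and Mir487b, so its place is settled only to within this group.

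Nearest to Mir143 was Mirlet7b at 3282 and 3692 CPM, followed by Mir361, Mir872, Mir484 and Mir139. The range of Mir143 overlapped those of 14 detected genes, among them Mir125a and Mir140, so its place among its neighbours is not settled. For Mir145a the nearest was Mir7j at 49.8 and 49.6 CPM, then Mir592, Mir219a-2, Mir199b and Mir483. Its range overlapped those of 11 genes, including Mir451a and Mir205. Likeness here is of level over 2 libraries and nothing more.

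**Figure D2:**
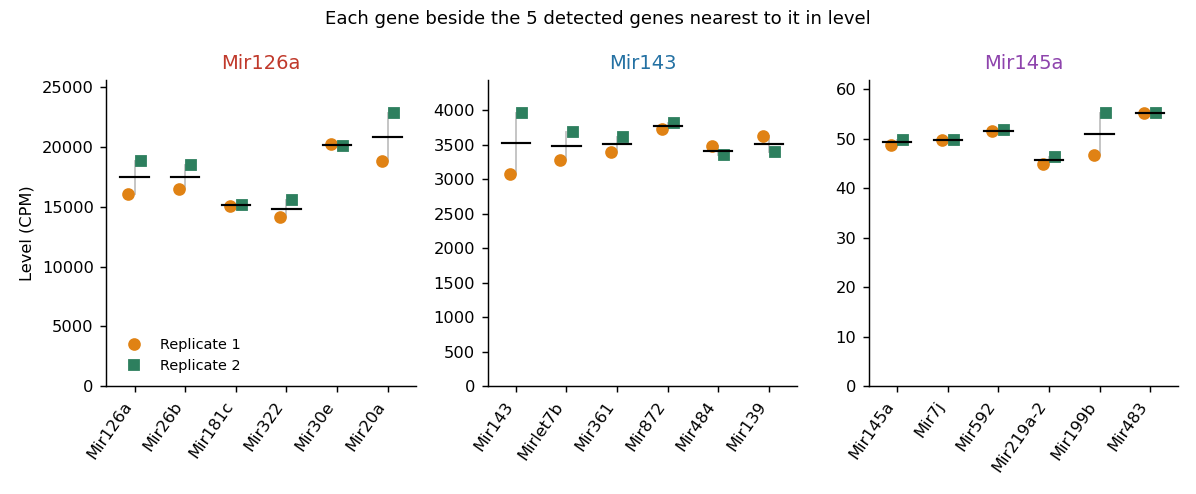
Level in CPM of each vascular gene and of the 5 detected genes nearest to it, in replicate 1 (orange circles) and replicate 2 (green squares), with the mean as a black bar. Mir126a and Mir143 were higher in replicate 2, and Mir143 shows the widest gap of its panel, 3081 and 3970 CPM.

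The members of the cluster, Mir143 and Mir145a, differed widely in reads although both hairpins are known to lie on a shared transcript. In replicate 1 Mir143 had 63.1 times the counts of Mir145a (exact 95% interval 54.9 to 72.9). In replicate 2 the ratio was 80.0 (69.4 to 92.6), and the mean was 71.6 ± 11.9. The intervals of the libraries overlap, while each lies far above equal counts. Counts within a library share its depth, so this ratio does not depend on normalization.

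Gaps of this size were found in a minority of neighbouring pairs. Among 111 pairs of neighbouring detected genes on 1 strand with starts within 10 kb, the median difference was 3.06 on the log2 scale, or 8.33-fold. The pair Mir143-Mir145a stood at 5.98 in replicate 1 and 6.32 in replicate 2, in place 22, and 19.8% of pairs had a mean difference at least as large, itself included. When pairs with a copied gene were left out, it was in place 8 of 68 pairs. A copy means a stretch of at least 20 nucleotides shared with another annotated microRNA. Some pairs of the vessel-related and mesenchymal lists, picked after their values were seen, were close to it. Mir503 and Mir322, without copies, stood at 5.95. Mir23a and Mir27a stood at 5.97 and Mir199a-2 and Mir214 at 6.02, each pair with a copied gene.

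**Figure D3:**
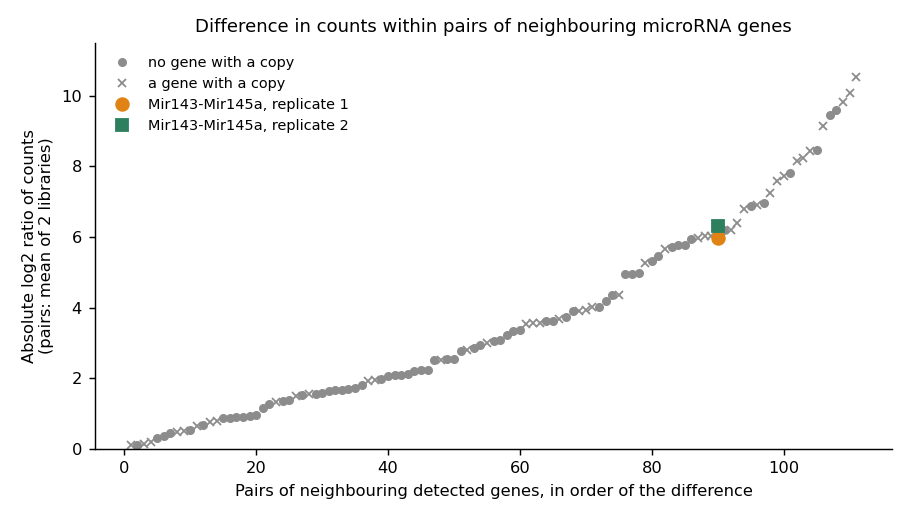
Absolute log2 ratio of counts within each of 111 pairs of neighbouring detected microRNA genes (mean of 2 libraries, grey; crosses where a gene of the pair has a copy), in order of size. The Mir143-Mir145a pair is shown for replicate 1 (orange, 5.98) and replicate 2 (green, 6.32) and lies in the upper part of the order.

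Between the libraries, Mir126a and Mir143 were lower in replicate 1, and for Mir145a no difference was detectable at its depth. This is a comparison of 2 libraries and not of conditions. After TMM normalization, a scaling that assumes most genes equal, replicate 1 over replicate 2 gave a log2 ratio of -0.34 for Mir126a (exact 95% interval -0.36 to -0.33) and -0.48 for Mir143 (-0.51 to -0.44). Mir145a stood at -0.14 (-0.43 to 0.16). In the exact binomial test, with Benjamini-Hochberg adjustment over 475 genes, Mir143 had an adjusted p of 3.45e-168, that of Mir126a was too small for the software to hold, and Mir145a did not pass (adjusted p = 0.534).

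The test measures counting error only, and 38.5% of the genes tested passed it, 18.1% as lower and 20.4% as higher in replicate 1. With library totals 11.4% passed as lower and 29.7% as higher. Passing it therefore says little about Mir126a and Mir143. The median log2 ratio of the 3 genes was -0.34, and that of all genes tested was -0.03. Of the detected genes, 29.4% had an absolute log2 ratio at least as large as that of Mir126a, and 17.2% one at least as large as that of Mir143. For Mir145a it was 63.1%.

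Among abundant genes the picture was narrower. Of the 91 genes over 1000 CPM, 74 passed the test, 46 of them as lower in replicate 1, and their median log2 ratio was -0.05. Mir143 had the lowest ratio of these 91 genes, and Mir126a the sixth lowest, an order that does not depend on the scaling. Between them stood Mir708 at -0.44, Mirlet7i at -0.41, Mir20a at -0.39 and Mir98 at -0.38. These genes were named because of their values. Mir708 has a copy.

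**Figure D4:**
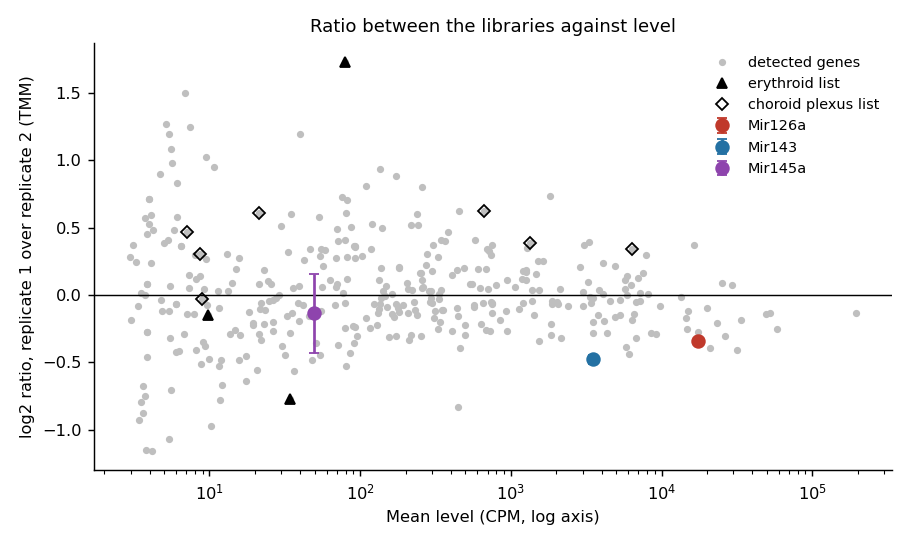
Log2 ratio of replicate 1 over replicate 2 after TMM normalization against mean level in CPM (log axis) for 377 detected genes (grey), the 3 vascular genes with exact 95% intervals, and the erythroid (triangles) and choroid plexus (diamonds) lists. Mir143 at -0.48 forms the lower edge among genes over 1000 CPM, Mir126a lies at -0.34, and the interval of Mir145a spans 0.

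Other genes tied to endothelium or vessel growth were measured on a list of 17, of which 15 had a line in the tables, Mir126a included. All 15 were detected, and they held 8.81% of gene counts in replicate 1 and 9.24% in replicate 2. Most of these genes are also made outside vessels. Mir130a, known for promoting angiogenesis by repressing Gax and Hoxa5 in human endothelial cells, led with 136040 counts in replicate 1 and 136007 in replicate 2, or 33916 ± 1242 CPM. Mir126a came next, and then Mir322, the mouse counterpart of human miR-424, at 14834 ± 1015 CPM. Mir23b followed at 5945 ± 733 CPM and has a copy by the measure above. Mir210, induced by low oxygen, had 533 ± 49.6 CPM, and Mir221 and Mir222, which restrain endothelial Kit in human cells, had 257 ± 28.4 and 138 ± 21.2 CPM.

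Among the 14 list genes besides Mir126a, 7 passed the exact binomial test as lower in replicate 1 and 2 as higher. Over all genes tested 18.1% passed as lower and 20.4% as higher, and of the 91 genes over 1000 CPM 74 passed in either direction. Their median log2 ratio was -0.15, against -0.03 for all genes tested. Mir130a stood at -0.19 (adjusted p = 1.01e-248) and Mir322 at -0.25 (adjusted p = 1.19e-197), both closer to 0 than Mir126a. Mir23b at 0.14 and Mir296 at 0.11 passed in the other direction. With library totals in place of TMM the counts were 6 lower and 6 higher, beside 11.4% and 29.7% of all genes tested, so the balance of this list rests on the scaling.

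The smooth muscle and mural list held 6 genes, of which 5 were detected, with 0.779% of gene counts in replicate 1 and 0.849% in replicate 2. Mir21a, widely expressed and known to be high in proliferating smooth muscle, was its most abundant gene at 4521 ± 145 CPM, above Mir143. Mir26a-2 and Mir26a-1, which have copies, stood at 36.5 ± 8.04 and 7.34 ± 0.611 CPM. Reads that map to several places were taken to count on no gene, so these levels may be too low and the order within the list is not settled. Mir145b had 0 counts in both libraries, a level of at most 0.729 CPM in replicate 1 and 0.767 in replicate 2. Besides Mir143 and Mir145a, 3 genes of the list were tested, and 2 passed as lower in replicate 1, Mir26a-2 (log2 ratio -0.56) and Mir21a (-0.05). Over all genes tested 18.1% passed as lower, and of the 91 genes over 1000 CPM 74 passed in either direction. With library totals Mir21a stood at 0.07 and passed as higher, as did 29.7% of all genes tested. With DESeq2 size factors Mir21a did not pass.

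Genes of cells that could accompany vessels in the dissection held smaller shares of the reads than Mir126a. The mesenchymal list, in which 3 of 6 genes have copies, held 0.379% of gene counts in replicate 1 and 0.334% in replicate 2. Of its genes 5 were detected, led by Mir140 at 3032 ± 196 CPM. Mir140, known from cartilage, was therefore near the level of Mir143, and their ranges overlapped. Mir214, of mesenchyme, was counted 1376 times in replicate 1 and 693 times in replicate 2, with a log2 ratio of 0.80 (adjusted p = 2.26e-33, exact binomial test). Mir199b, which has a copy, passed in the other direction, with 192 and 216 counts and a log2 ratio of -0.36 (exact binomial adjusted p = 0.0351). With library totals 2 of the 5 genes tested passed as higher, Mir214 and Mir140 (log2 ratio 0.13), and 0 as lower. Over all genes tested 29.7% passed as higher and 11.4% as lower with library totals, and 20.4% and 18.1% with TMM.

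Blood markers did not move as 1 group. The erythroid list, with 3 of 3 measured genes detected, had 0.0159% of gene counts in replicate 1 and 0.00862% in replicate 2. Mir451a had 507 and 134 counts (log2 ratio 1.73, adjusted p = 5.31e-41 in the exact binomial test). Mir144, cut from the same transcript, had 109 and 164 (-0.77, adjusted p = 5.08e-05), and Mir486 had 40 and 39. The leukocyte and microglia list, with 4 of 5 measured genes detected, held 0.0295% in replicate 1 and 0.0302% in replicate 2. Its defining myeloid gene Mir223 had 368 and 400 counts (log2 ratio -0.31, adjusted p = 0.0105 in the exact binomial test). With library totals Mir223 did not pass the exact test (adjusted p = 0.138).

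In both libraries the summed share of the 3 vascular genes exceeded that of the erythroid, leukocyte and mesenchymal lists, 120-fold, 65.0-fold and 5.06-fold in replicate 1. In replicate 2 these ratios were 265-fold, 75.6-fold and 6.85-fold. In the mesenchymal list 3 of 6 genes have copies, so its share may be too low and the excess over it too high. Mir142 of the leukocyte list had no line in the tables, and reads on the strand opposite Mir142b, at the Mir142 locus, are left out of these ratios. With counts on either strand the excess over the leukocyte list was 41.1-fold in replicate 1 and 48.6-fold in replicate 2. With 2 libraries no permutation test can pass, and none was made. The part of these cells in the ratios of Mir126a and Mir143 was not tested.

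Part of the choroid plexus and multiciliated list was higher in replicate 1, where Mir126a and Mir143 were lower. The list, with 7 of 7 genes detected, held 0.980% of gene counts in replicate 1 and 0.700% in replicate 2. Of its 7 genes, 4 passed the exact binomial test as higher in replicate 1 and 0 as lower, by TMM, library totals and DESeq2 size factors alike. Over all genes tested, 20.4% passed as higher with TMM, 29.7% with library totals and 104 of 475 with DESeq2 size factors. Of the 91 genes over 1000 CPM, Mir449a and Mir204 included, 74 passed in either direction with TMM. Mir211, Mir449b and Mir449c did not pass. Mir449a, of multiciliated cells, had 30259 and 20934 counts (log2 ratio 0.34), and Mir204, of choroid plexus and pigment epithelium, 6459 and 4336 (0.39). The neural list lacked a line for Mir9-1, and 7 of its 10 measured genes have copies. Reads that map to several places were taken to count on no gene, so its share may be too low. The list held 2.72% in replicate 1 and 2.35% in replicate 2, with 9 genes tested. Of these, 3 passed as higher and 0 as lower with TMM, or 5 and 0 with library totals, against the same shares over all genes. The ratios of 5 of the 9 were below 0 with TMM. The part of these tissues in the ratios of the vascular genes was not tested. The striated muscle list held 0.00556% and 0.00437%, and 4 of its 8 measured genes, all with copies, had 0 counts in both libraries.

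**Figure D5:**
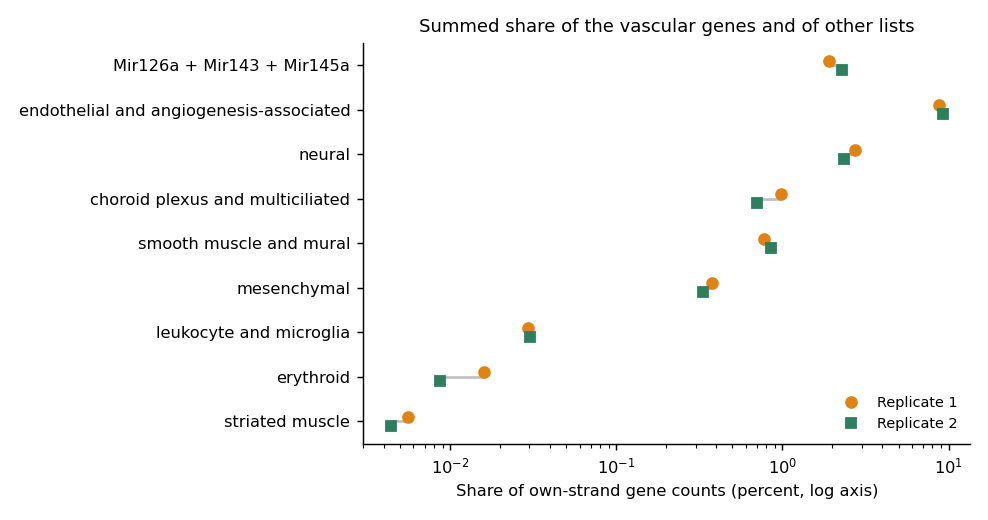
Share of gene counts (percent, log axis) of the 3 vascular genes together and of each list in replicate 1 (orange circles) and replicate 2 (green squares). The vascular sum, 1.92% and 2.28%, lies near the neural list, and the erythroid, leukocyte and striated muscle lists lie lowest. The endothelial list includes Mir126a, and the smooth muscle and mural list includes Mir143 and Mir145a. Of the 10 measured neural genes 7 have copies, so the neural share may be too low.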

How the data were processed

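The authors deposited whole-number counts of reads per microRNA gene for each library, on either strand, the strand of the gene and the opposite strand, and with replicates not pooled. The build mm10 and annotation M4 are given in the deposited read-me texts, while no aligner or counting setting is stated there. The own-strand counts were used. The summary rows, for multi-mapped, unmapped (16.7% and 15.0% of reads in replicates 1 and 2) and unassigned reads (3.99% and 3.71%), stayed out of library sizes and tests. Symbols and positions came from GENCODE M21, which matched 1894 of 1973 identifiers. The list name Mir92a-1 was matched to Mir92-1 through RefSeq synonyms.

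TMM factors were computed with edgeR 4.0.16 in R 4.3.3 over genes whose libraries summed to 10 counts or more, the genes also tested. Size factors from DESeq2 1.42.0 were an alternative. The two-sided exact binomial test (SciPy 1.17.1) had a threshold of 0.05 for the adjusted p. Log2 ratios used a prior count of 0.5. The test was also run on data simulated around the real counts, with known changes set and counting error as the only other spread. The real libraries differed by more than counting error, so this is no check of the test on them. A count of 0 was taken to allow 3 counts. Over detected genes the counts of the libraries gave a chi-square of 32540 (376 degrees of freedom), so they are not copies of 1 library. The genes and lists were chosen with earlier results of these data known. Named genes were the 3 vascular genes, the 5 nearest to each in level, up to 4 leading genes of each list, and genes overlapping a vascular gene. Any others were picked with their values in view.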

Additional observations from a re-analysis of the deposited data

Results flagged for a closer look

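Reads on the opposite strand, outside the main measurement, exceeded the limit that a count of 0 allows in both libraries at 3 list genes and at none of Mir126a, Mir143 and Mir145a. At Mir142b, which lies opposite Mir142, the mean was 680.5 reads, 704 in replicate 1 and 657 in replicate 2. At Mir124a-3 the mean was 9.5, and at Mir486 it was 6.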

How the results depend on the processing

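Of 74 alternative values besides those that leave out a replicate, 62 stayed on the same side of the threshold, within the replicate SD or within 1.5 times. Some of these could hardly move. Filters leave the log2 ratios of the vascular genes unchanged, and TMM and DESeq2 factors move the libraries in opposite directions, which leaves mean levels nearly unchanged. The tally is therefore no measure of stability. Relative to all reads in the tables, the levels were 6628 for Mir126a, 1339 for Mir143 and 18.7 for Mir145a in reads relative to 1000000, and their summed share was 0.799%. This follows from the larger denominator. With that denominator the log2 ratio of Mir145a changed sign to 0.027, far from the threshold (exact binomial adjusted p = 0.952). Library totals shifted log2 ratios by 0.11, under which 54 genes passed as lower and 141 as higher in replicate 1, against 86 and 97 with TMM. Mir126a and Mir143 passed as lower under every scaling tried, at -0.34 to -0.18 and -0.48 to -0.31. The filters leave these ratios as they are, and the opposite strand added at most a few reads, so these settings are no check of them. With counts on either strand Mir145a stood at 48.2 CPM and in place 254, and the leukocyte and microglia list at 0.0459%. With copied genes left out Mir145a was in place 189, the leukocyte and microglia list at 0.0276% and the endothelial list at 7.34%. With 2 libraries, leaving out either one only returns the value of the other, given in the report, and is no check of stability. No paired analysis was possible because there is 1 group. At 201 and 194 counts, the interval of the Mir145a ratio, -0.43 to 0.16, limits what could be seen.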
